A study of Oryza sativa Japonica Group with 8 samples.

Results

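The transcriptomes compared here are those of rice seedlings after a cold shock: T_CS, the transgenic RD29A:DREB1a seedlings, against N_CS, the non-transgenic controls that the labels call WT. The rule took the 2 T_CS and the 2 N_CS libraries, 4 of the 8 libraries of the series, and compared them across all 38978 gene IDs of the count tables, of which 28218 passed the filter on low counts. The other 4 libraries come from the same genotypes kept at room temperature (T_RT and N_RT) and are used only to show where the genotype contrast after cold shock differed from the one without it. T seedlings carried the Arabidopsis DREB1a gene behind the stress-inducible RD29a promoter of Arabidopsis, in a stacked locus that also held the marker genes NPTII, GFP, GUS and pporRFP. This locus had been placed by Cre-lox integration into the T5 founder line of cultivar Taipei-309, and the study's methods take T5 as N. The labels give the T pool as homozygous lines 11, 20 and 29, whereas the methods name homozygous lines 11 and 29 beside hemizygous lines for the study as a whole and do not say which were pooled for RNA-seq, and the counts do not settle it. Seedlings of both genotypes were 10 days old, cold shock was 20 h on crushed ice in a cold chamber, and RNA came from the aerial parts. Each group was 1 pool of RNA from 6 seedlings, and its 2 libraries were made from that pool, so that every SE and FDR below measures only the spread between technical libraries and not between plants. T also differed from N by the marker genes and by the integration, and the effect of DREB1a and of these cannot be told apart in this comparison.

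DREB1a, also called CBF3, is a transcription factor of the AP2/ERF family. It binds the dehydration-responsive element, a short promoter motif with the core CCGAC, in genes that plants switch on under cold, drought and salt. In Arabidopsis the family acts upstream of the cold acclimation genes that encode dehydrins, other protective hydrophilic proteins and enzymes of compatible solutes, and rice has DREB1 genes of its own. The RD29a promoter is itself a target of this family and is induced by cold. The comparison asks which rice genes stood higher or lower when the transgene was present under the treatment that induces its promoter. The count tables list rice gene IDs, and the Arabidopsis DREB1a transcript itself was not analysed here.

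The cold libraries held 21123630 and 18963211 counts in T_CS and 22880548 and 19643540 in N_CS, within the range of 18963211 to 24405824 over the series. Levels are given as CPM (counts scaled to a common library total) after TMM scaling, whose factors ran from 0.935 to 1.07. They are not adjusted for gene length and serve to compare libraries within a gene. The 2 libraries of T_CS differed from each other by more than counting noise, with a chi-square per gene of 2.39, against 1.79 in N_CS, and none of the libraries was a copy of another. No table used here pairs the IDs with leaf or root marker genes, so the labelled tissue was not checked against markers.

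After cold shock the genotypes differed in 42.3% of the genes tested, whatever the fold. In such bulk RNA, a change in the share of a cell type and a change of RNA per cell cannot be told apart. The thresholds of the study were used: a false discovery rate (FDR) no higher than 0.01 in the edgeR quasi-likelihood test, together with a log2 fold change of 2 or more for a higher call and of -1 or below for a lower one. By these, 673 IDs were called higher (2.39% of those tested) and 1387 lower (4.92%). Whatever the fold, 6052 IDs (21.4%) were higher and 5885 (20.9%) were lower in T_CS at that FDR. The excess of lower calls came with the unequal fold thresholds. With a threshold of 1 on the log2 scale in either direction, 2135 IDs were higher and 1387 lower, and at 2 in either direction 673 were higher and 316 lower. The further the threshold was raised, the larger the share of higher IDs became: 72.2% of the 353 past 3, and 81.5% of the 81 past 5. This skew was not particular to cold shock. In T_RT versus N_RT the share of higher IDs was larger still, with 82.6% of the 86 past 3 and 96.3% of the 27 past 5. The balance near a fold of 1 depended on scaling, since with total counts in place of TMM factors 5183 IDs were higher and 7432 lower at the FDR, and the median log2 fold change of all tested IDs was -0.13 in place of -0.05.

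**Figure D1:**
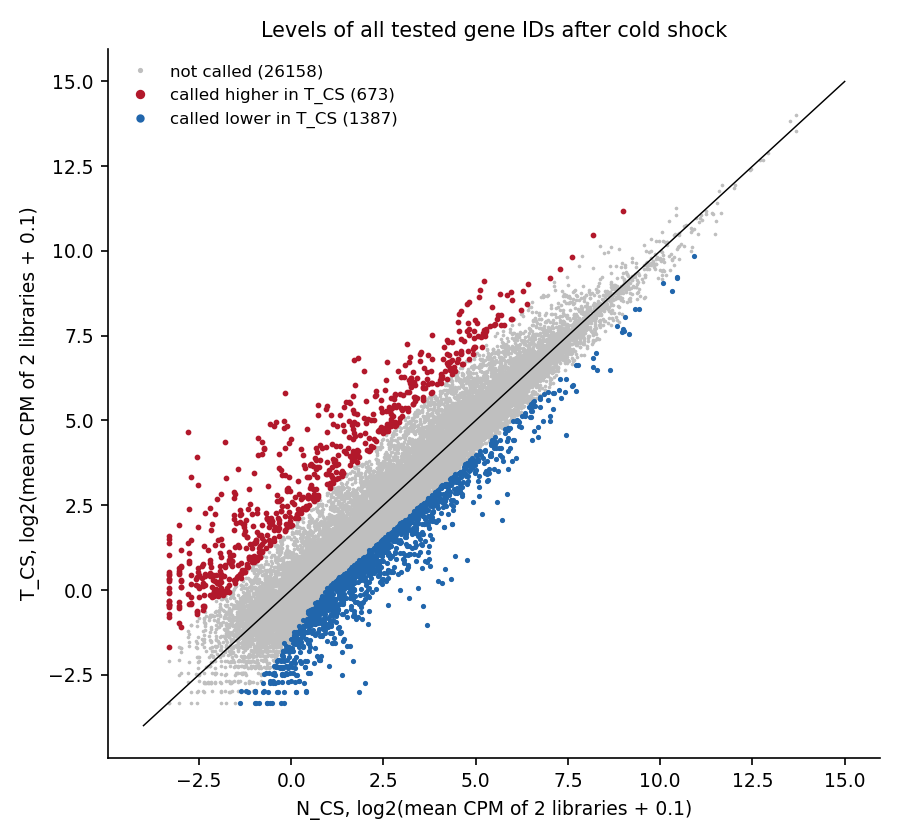
Levels of the 28218 tested gene IDs in T_CS (vertical axis) and N_CS (horizontal axis) as log2 of the mean CPM of 2 libraries plus 0.1, with the line of equal level. The 673 IDs called higher in T_CS (red) reach farther from the line than the 1387 called lower (blue), and 69 of the red IDs had at most 3 counts in N_CS.

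**Figure D2:**
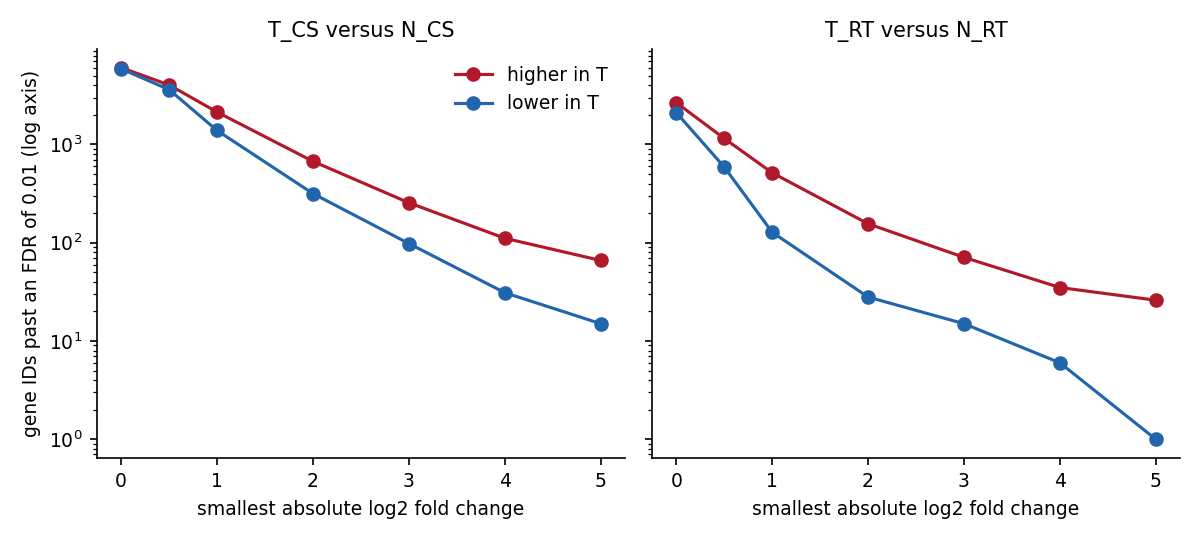
Number of gene IDs past an FDR of 0.01 (log axis) against the smallest absolute log2 fold change asked for, in T_CS versus N_CS (left) and T_RT versus N_RT (right), with IDs higher in T in red and lower in T in blue. After cold shock 6052 IDs were higher and 5885 lower with no fold threshold, and 66 were higher and 15 lower at a threshold of 5.

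The higher and the lower calls lay at different levels of expression. Among IDs that averaged 1 to 3 CPM over the 4 cold libraries, 11.5% were called lower and 3.15% higher. Among those at 100 to 300 CPM, 1.01% were called lower and 2.96% higher. The 2 thresholds are unequal, and with a log2 fold change of 1 for higher IDs too, 8.41% of the first class and 10.9% of the second were higher. IDs of 300 CPM and over went the other way in part, since 44.9% of the 405 IDs in that class were lower and 33.3% higher at the FDR, while few of either passed the fold thresholds. The 673 IDs called higher took up 3.12% and 3.21% of all counts in the T_CS libraries, against 0.547% and 0.550% in N_CS. The 1387 called lower took up 1.10% in each T_CS library, against 2.94% and 2.96% in N_CS. In part the calls rest on a near absence of counts from the other genotype: 69 of the 673 had at most 3 counts over the N_CS libraries, 22 of these with none, and 67 of the 1387 had at most 3 counts over the T_CS libraries, 10 of these with none.

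**Figure D3:**
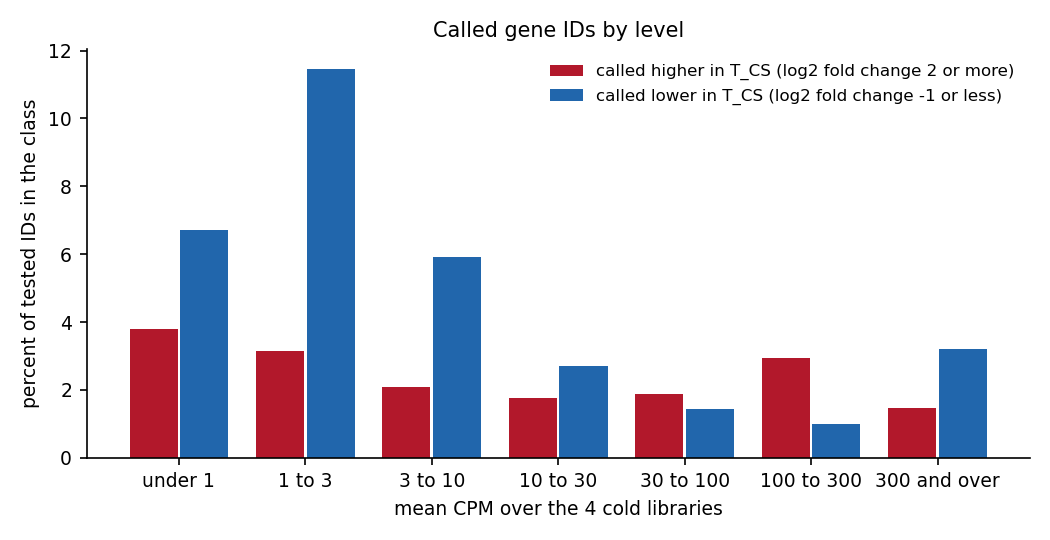
Share of tested gene IDs called higher (red) or lower (blue) in T_CS versus N_CS, in percent, by mean CPM over the 4 cold libraries. Lower calls peak at 11.5% in the class from 1 to 3 CPM and are 1.01% at 100 to 300 CPM, whereas higher calls stay between 1.48% and 3.79% in every class.

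Called genes came from all 12 chromosomes. By the chromosome in the ID, the share called higher was smallest on chromosome 6 (34 of 2264 IDs) and reached 2.97% on chromosome 7, and the share called lower from 4.33% on chromosome 12 to 5.86% on chromosome 5. Part of the called IDs were neighbours. After keeping 1 ID of each run of neighbours with near-equal counts (near-equal in each of the 8 libraries), 639 of the remaining 26678 IDs that carry a chromosome number were called higher, and 243 of these stood in 109 runs of consecutive called IDs. A second ID that overlaps a gene can take up its reads, and the strand setting of the counting is not stated. Of the 55 named genes called higher below, 23 had a called-higher ID next to them, among them ONAC59, OsFLS2, OsPAO4, OsRLCK253a and OsWRKY8. In OsOPR1, OsTPS3 and OsRBOH that ID had near-equal counts. For these, the share of reads that belongs to the named gene is uncertain.

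The genes named below are those with a complete ID in the text or tables of the published report. There were 65 of them, and 59 passed the filter on low counts. That choice was made from these samples, so the counts over the lists are a description and not independent evidence of a direction. At the FDR 56 of the 59 were higher and 1 was lower, beside 21.4% and 20.9% of all tested IDs, and 55 were called higher and 1 lower, beside 2.39% and 4.92%. Their median log2 fold change was 3.68, or 3.65 with the 5 genes that had no N_CS count set at their lower bound, against -0.05 over all IDs tested. Where N_CS had no count, the fold is given as a bound against 3 counts over the group. A gene with 1 to 3 counts in a group has the ratio of its summed counts instead, followed by the 95% counting interval, and such intervals and bounds cover counting error only.

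Of the 3 rice DREB1 genes with an ID in the published report, OsDREB1A and OsDREB1C showed little of the change seen in the other named genes. Other members of the family that the study shows, such as OsDREB1B and OsDREB1H, were not examined here. OsDREB1A (Os09g0522200), a cold-induced homolog of the transgene, had 95.5 and 89.7 CPM in T_CS, against 95.4 and 102 CPM in N_CS. The groups overlapped, and the log2 fold change of -0.09 ± 0.05 (SE) did not pass the test (FDR 0.145). With total counts as the scale it was -0.16 and did (FDR 0.00425). OsDREB1C (Os06g0127100) had 11.3 and 9.84 CPM in T_CS, against 8.18 and 8.62 CPM in N_CS. These groups did not overlap but lay close to each other, and the log2 fold change of 0.34 ± 0.14 did not pass either (FDR 0.0416). OsDREB1G (Os02g0677300) was the exception, with 33.2 and 35.8 CPM in T_CS, against 7.39 and 10.5 CPM in N_CS. Both T_CS libraries were well above both N_CS libraries, and with 1.96 ± 0.12 (FDR 5.57e-24) the gene passed the FDR and fell just short of the fold for a higher call. At room temperature the pattern of these genes was another. There OsDREB1C had 7.80 and 8.46 CPM in T_RT, against 0.577 and 0.486 CPM in N_RT, and OsDREB1A had 19.2 and 20.9 CPM in T_RT, against 63.7 and 59.3 CPM in N_RT. The genotype contrast of each differed between the treatments, by 1.53 for OsDREB1A, -3.57 for OsDREB1C and -0.91 for OsDREB1G on the log2 scale (FDR 6.28e-26, 2.97e-17 and 0.00185). In all 3, the genotypes were closer to each other after cold shock than at room temperature.

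**Figure D4:**
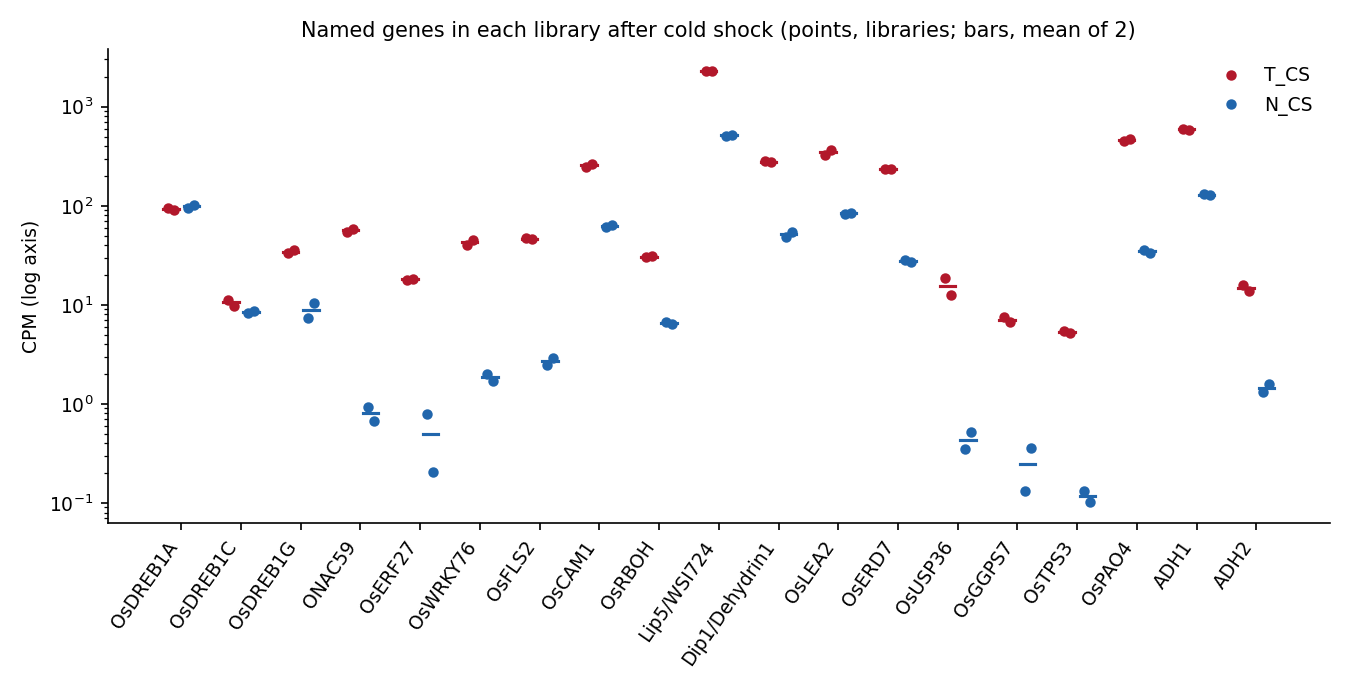
CPM of 19 named genes on a log axis in the 2 T_CS libraries (red, left of each pair) and the 2 N_CS libraries (blue, right), with a bar at each mean. The libraries of OsDREB1A overlap between the groups, those of OsDREB1C lie close together, and the other 17 genes show both T_CS libraries above both N_CS libraries.

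Several of the largest named increases were in transcription factor genes. The study lists the named WRKY and ERF genes as higher in these samples, so their calls here restate that choice. WRKY and ERF genes outside these lists were not examined. Among all tested IDs, 2.39% were called higher. WRKY products bind W-box promoter elements in defense and stress genes. All 8 named WRKY genes were called higher, with a median log2 fold change of 4.05. All 6 ERF genes, relatives of DREB1a within the AP2/ERF family, were called higher, with a median of 4.85, or 4.21 with the 2 genes that had no N_CS count at their bound. OsWRKY76 (Os09g0417600), a WRKY repressor with a part in blast defense and cold tolerance of rice, had 40.3 and 45.3 CPM in T_CS, against 1.99 and 1.70 CPM in N_CS. Its neighbour on the chromosome, OsWRKY62 (Os09g0417800), had 9.43 and 9.78 CPM in T_CS, against 2.08 and 2.12 CPM in N_CS. Both T_CS libraries exceeded both N_CS libraries for each gene, with log2 fold changes of 4.52 ± 0.13 (FDR 2.79e-40) and 2.19 ± 0.18 (FDR 1.93e-17). At room temperature the contrast was 3.35 for OsWRKY76, smaller than after cold shock (difference 1.17, FDR 3.76e-05), and 3.24 for OsWRKY62, larger than after cold shock (difference -1.05, FDR 0.000944). OsWRKY8 (Os05g0583000) was nearly absent from N_CS, with 1 and 2 counts, against 167 and 150 counts in T_CS, a ratio of 118 (95% interval 40.1 to 576). OsWRKY67, OsWRKY113 and OsWRKY15 were called higher from levels of 2.70 to 3.95 CPM in T_CS, against 0.310 to 0.708 CPM in N_CS.

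Among the ERF genes, OsERF27 (Os02g0676800) had 17.9 and 18.1 CPM in T_CS, against 0.796 and 0.206 CPM in N_CS (log2 fold change 5.09 ± 0.25, FDR 3.28e-28). The size depends on the N_CS libraries, with 6.40 without N_CS replicate 1 and 4.49 without N_CS replicate 2. It was the only ERF gene of the 6 whose contrast differed from that at room temperature at the FDR (difference 3.74, FDR 4.16e-11). OsERF67 and OsERF118 had no count in N_CS and were at least 17.9-fold and at least 16.4-fold higher in T_CS, with 18 and 30 counts and with 29 and 15 counts. The call of OsERF118 was lost with DESeq2 (FDR 0.241). OsERF108 rests on 14 and 24 counts in T_CS, against 0 and 2 in N_CS, and its ratio of 21.3 had an interval of 5.50 to 182.

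ONAC59 (Os01g0862800), of the plant-specific NAC factors, and the bHLH148-like gene (Os01g0773800), named for a rice bHLH factor that binds JAZ proteins, were both called higher. ONAC59 had 54.5 and 58.4 CPM in T_CS, against 0.929 and 0.671 CPM in N_CS, a log2 fold change of 6.11 ± 0.15 (FDR 1.39e-44). The bHLH148-like gene had 485 and 468 counts in T_CS, against 2 and 0 in N_CS, a ratio of 533 (147 to 4410). At room temperature ONAC59 stood at 3.44 and 3.85 CPM in T_RT, against 2.85 and 2.77 CPM in N_RT, a contrast of 0.38 that did not pass the test (FDR 0.123). The bHLH148-like gene had 0.770 and 0.891 CPM in T_RT, against 0.0769 and 0.0973 CPM in N_RT, and was called higher there too (3.19, FDR 7.23e-06).

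For several of these genes the study designed qPCR primers, which are the gene-specific sequences at hand and are shown for 4 genes that the comparison turns on, OsWRKY76, ONAC59 (OsNAC59 in the primer names), OsFLS2 and OsCAM1. They run 5′ to 3′, F forward and R reverse, are 17 to 21 bases long, and were matched to the genes by name, since their sites were not located. No part is in capitals because none is singled out.
qOsWRKY76-F: atcacgctcgacctcaccaag
qOsWRKY76-R: aactccggcgacgcgacct
qOsNAC59-F: ggaaaacgacggatcaggaa
qOsNAC59-R: agtacagaagtgcggtcaag
qOsFLS2-F: agttcgcgtacatgagga
qOsFLS2-R: ggtgaagagctccatcg
qOsCAM1-F: accaacctcggcgagaa
qOsCAM1-R: catgaccttgacgaactcc

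The study reports the named kinase and signaling genes as higher in these samples. All of them were called higher here, which restates that choice, beside 2.39% of all tested IDs. These were 6 receptor-like kinase genes (median log2 fold change 4.34) and 5 genes of calcium, kinase and reactive oxygen signaling, with a median of 4.12, or 3.16 with the gene without an N_CS count at its bound. OsFLS2 (Os04g0618700), the rice receptor of bacterial flagellin, had 46.9 and 46.2 CPM in T_CS, against 2.48 and 2.89 CPM in N_CS (4.12 ± 0.13, FDR 4.41e-39). The receptor kinase gene with LRR repeats Os05g0486100 took the most counts of the list, with 203 and 209 CPM in T_CS, against 38.4 and 38.7 CPM in N_CS (2.42 ± 0.049, FDR 7.86e-50). This gene had gone the other way at room temperature, with 30.003 and 31.2 CPM in T_RT, against 40.2 and 40.5 CPM in N_RT (-0.40, FDR 1.08e-07). OsRLCK253a (Os08g0374600), a cytoplasmic kinase gene, had 20.2 and 20.5 CPM in T_CS, against 0.221 and 0.155 CPM in N_CS (6.70 ± 0.26, FDR 2.70e-33). The LRR receptor-like kinase gene Os05g0524500 differed from the others in its room temperature levels. It had 29 and 32 counts in T_CS, against 1 and 1 in N_CS (ratio 34.1, interval 9.05 to 288), but 5.57 and 6.24 CPM in T_RT, against 0.0384 and 0 CPM in N_RT, so that its level in T was higher without cold. The difference of its contrasts, -2.83, did not pass the test (FDR 0.178).

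OsCAM1 (Os03g0319300), which encodes calmodulin, the calcium sensor, had 245 and 266 CPM in T_CS, against 61.2 and 64.1 CPM in N_CS (2.03 ± 0.045, FDR 4.77e-48). OsRBOH (Os12g0541300), an NADPH oxidase gene of the family that makes superoxide at the plasma membrane, had 30.5 and 31.0 CPM in T_CS, against 6.63 and 6.45 CPM in N_CS (2.23 ± 0.11, FDR 4.67e-29). The next ID had near-equal counts, so its reads may be counted under both. Part of its contrast was present at room temperature, at 1.27, and the difference was 0.96 (FDR 4.96e-08). The calcium-dependent kinase gene Os08g0540400 had 12.6 and 11.6 CPM in T_CS, against 0.575 and 0.826 CPM in N_CS, while its room temperature contrast of -0.34 did not pass the test (FDR 0.568). MAPKKK17_18, a kinase gene at the top of a MAP kinase cascade, and the protein phosphatase 2C gene Os11g0242200, of a family that includes repressors of abscisic acid signaling, had few counts. The kinase gene had 32 and 32 counts in T_CS, against 1 and 1 in N_CS (ratio 35.8, interval 9.52 to 302), and the phosphatase gene had 12 and 12, against none, at least 8.95-fold higher.

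The study lists genes for proteins that protect cells under water deficit and cold as higher in these samples. All tested members were called higher here, which restates that choice, beside 2.39% of all tested IDs. The 4 listed dehydrin and LEA genes had a median log2 fold change of 2.30, and the 3 tested genes of other protective proteins one of 3.65. Genes of these kinds outside the lists were not examined. Lip5/WSI724 (Os03g0655400), a gene named for its induction by low temperature and water stress and the named gene with the most counts in T_CS, had 2306 and 2302 CPM in T_CS, against 505 and 521 CPM in N_CS (2.17 ± 0.026, FDR 4.59e-63). Dip1/Dehydrin1 (Os02g0669100), a dehydrin gene, had 282 and 276 CPM in T_CS, against 48.7 and 54.7 CPM in N_CS. OsLEA2 (Os01g0314800) had 326 and 369 CPM in T_CS, against 83.0 and 85.0 CPM in N_CS. The groups were far apart in all 3, with folds of 4.49, 5.42 and 4.14. At room temperature these 3 genes were not higher in T. OsLEA2 had 64.3 and 65.2 CPM in T_RT, against 87.9 and 91.9 CPM in N_RT (-0.47, FDR 9.92e-13), Lip5/WSI724 differed by -0.12 (FDR 0.000108), and Dip1/Dehydrin1 by 0.03 (FDR 0.695). OsLEA22 (Os01g0702500) had 58 and 52 counts in T_CS, against none in N_CS, at least 41.0-fold higher, and so ranks high by fold and low by level. The dnaJ gene Os01g0702450, with an ID just before it, was not tested, at 7 and 13 counts in T_CS, against 0 and 1 in N_CS.

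OsERD7 (Os03g0241900), a gene of early response to dehydration, had 233 and 237 CPM in T_CS, against 28.1 and 27.1 CPM in N_CS (3.09 ± 0.053, FDR 2.48e-54). The dnaJ gene Os08g0452900, for a co-chaperone of HSP70 proteins, had 74.9 and 71.5 CPM in T_CS, against 5.84 and 5.78 CPM in N_CS (3.65 ± 0.099, FDR 1.25e-42). OsUSP36 (Os10g0437500), a universal stress protein gene, had 18.8 and 12.5 CPM in T_CS, against 0.354 and 0.516 CPM in N_CS (5.18 ± 0.24, FDR 3.46e-29). In OsUSP36 the T_CS levels overlapped those of T at room temperature, with 17.3 and 20.3 CPM in T_RT, against 5.15 and 4.52 CPM in N_RT. Both genes that the study lists as trehalose-6-phosphate synthase genes were called higher. The synthase carries out the first step of trehalose synthesis, but the activity of the products of these genes was not examined. Os08g0445700 had 56.9 and 59.7 CPM in T_CS, against 5.04 and 4.70 CPM in N_CS (3.58 ± 0.10, FDR 1.13e-41). Os08g0414700 had 27.8 and 30.6 CPM in T_CS, against 7.96 and 6.19 CPM in N_CS (2.03 ± 0.11, FDR 2.47e-25), and was lower in T at room temperature (-0.52, FDR 3.33e-05).

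Of the metabolic genes, OsPAO4 (Os04g0671200), a polyamine oxidase gene whose enzyme releases hydrogen peroxide, was called higher with a small error. It had 446 and 471 CPM in T_CS, against 35.8 and 33.7 CPM in N_CS (3.72 ± 0.047, FDR 5.17e-62), and at room temperature 40.02 and 40.3 CPM in T_RT, against 38.4 and 34.5 CPM in N_RT (0.13, FDR 0.0708). The contrast was thus large after cold shock and below the threshold without it, with a difference of 3.59 (FDR 6.86e-49). ADH1 (Os11g0210300) and ADH2 (Os11g0210500), neighbouring alcohol dehydrogenase genes of ethanol fermentation, were both called higher. ADH1 had 602 and 581 CPM in T_CS, against 130.5 and 127 CPM in N_CS (2.20 ± 0.034, FDR 1.65e-56), and ADH2 had 16.0 and 13.7 CPM in T_CS, against 1.33 and 1.6002 CPM in N_CS (3.35 ± 0.18, FDR 1.41e-25). Both were also higher in T at room temperature, by 1.36 and 2.38, and the contrasts differed by 0.84 and 0.97 (FDR 3.86e-24 and 0.00248). OsGGPS7 (Os01g0248701), for the synthase of the diterpene precursor geranylgeranyl diphosphate, had 7.45 and 6.69 CPM in T_CS, against 0.133 and 0.361 CPM in N_CS (4.86 ± 0.34, FDR 5.07e-20), or 4.26 without N_CS replicate 1 and 5.67 without N_CS replicate 2. The terpene synthase gene OsTPS3 (Os02g0121700) had 5.42 and 5.17 CPM in T_CS, against 0.133 and 0.103 CPM in N_CS (5.41 ± 0.45, FDR 6.67e-17), and shares near-equal counts with the next ID.

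The 2 named defense genes had 3 counts in all over the N_CS libraries. The beta-1,3-glucanase gene Os01g0947000, whose enzyme cleaves callose and fungal wall glucans, had 199 and 173 counts in T_CS, against 0 and 2 in N_CS, a ratio of 208 (57.2 to 1725). The Bowman-Birk trypsin inhibitor gene Os01g0127600 had 17 and 9 counts in T_CS, against 1 and 0 in N_CS, a ratio of 29.1 (4.78 to 1193), and had none at room temperature in either genotype. Its call was lost with DESeq2 (FDR 0.0196) and without N_CS replicate 2 (FDR 0.0158). Of the named genes, 6 did not pass the filter on low counts. The lignin synthesis genes OsCCR and OsC4H had 13 and 3 and 14 and 1 counts in T_CS, against none in N_CS, so that nearly all counts came from T_CS replicate 1. OsTPS23 had 13 and 4 and OsPAO6 had 3 and 2, against none, and the alpha-amylase gene Os01g0357400 had 0 and 1, against none. The filter left these genes out of the main fit, and no test of them is reported here.

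The study lists 12 genes with an ID under the jasmonate and auxin pathways as higher in these samples. All 12 were called higher in T_CS, which restates that choice, beside 2.39% of all tested IDs. Among them were 5 genes of JAZ proteins, the repressors at the core of the jasmonate response (median log2 fold change 3.58). JAZ genes outside this list were not examined. All 5 lipoxygenase and OPR genes that the study lists under jasmonate synthesis were called too, with a median of 3.09. The study describes their part in that synthesis as putative. OsJAZ5 (Os03g0402800) took the most counts of the JAZ genes, with 416 and 438 CPM in T_CS, against 49.8 and 50.3 CPM in N_CS (3.09 ± 0.043, FDR 1.38e-59). OsOPR1 (Os06g0216300), for an enzyme that reduces the jasmonate precursor OPDA or related compounds, had 26.3 and 30.3 CPM in T_CS, against 0.663 and 0.981 CPM in N_CS (5.11 ± 0.20, FDR 4.87e-34), and shares near-equal counts with its neighbour. At room temperature 2 of the 5 JAZ genes, OsJAZ1 and OsJAZ5, were lower in T at the FDR, and the contrast differed between treatments in all 5. Both GH3 genes, for enzymes that join auxin to amino acids, were called higher at 1.17 to 3.75 CPM in T_CS, against 0.310 to 0.796 CPM in N_CS, and the call of OsGH3-8 was lost without T_CS replicate 2 (FDR 0.0115).

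Only 1 of the named genes fell in T_CS. OsHsfB2b (Os08g0546800), of the class B heat-shock factors, which lack the activation domain of class A, had 3 and 0 counts in T_CS, against 56 and 49 in N_CS. N_CS was higher by a ratio of 31.3 (10.4 to 154), and the fit called the gene lower (FDR 5.28e-10), also without either T_CS library. At room temperature the gene went the other way, with 0.861 and 1.34 CPM in T_RT, against 0.4998 and 0.0973 CPM in N_RT (1.78, FDR 0.00515), and the contrasts differed by -6.65 (FDR 2.82e-10).

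Among genes that averaged at least 10 CPM in the higher group, the 10 largest increases included 4 of the named genes, the bHLH148-like gene, OsRLCK253a, ONAC59 and OsWRKY108. The other 6, like the 10 largest decreases, have no name in the sources used here. Among the 6 is the ID next to ONAC59, with a log2 fold change of 5.52, and both may in part count the same reads. The largest unnamed increase, Os02g0639300, had 309 and 260 counts in T_CS, against 2 and 1 in N_CS, a ratio of 212 (72.3 to 1032), and the next, Os12g0117700, had 29.2 and 30.3 CPM in T_CS, against 0.575 and 0.568 CPM in N_CS (5.69 ± 0.17). They differ in what they did without cold: Os12g0117700 had 45.9 and 47.9 CPM in T_RT, against 1.35 and 1.46 CPM in N_RT, whereas Os02g0639300 had 0.363 and 0.567 CPM in T_RT, against 0.192 and 0.146 CPM in N_RT. The largest decrease was in Os05g0407100, with 0.152 and 0.619 CPM in T_CS, against 13.3 and 11.98 CPM in N_CS (-5.06 ± 0.27), or -4.34 without T_CS replicate 1 and -6.32 without T_CS replicate 2. It was followed by Os09g0526650, with 0.405 and 0.844 CPM in T_CS, against 10.3 and 13.4 CPM in N_CS (-4.25 ± 0.24, or -4.84 without T_CS replicate 2), whose neighbouring ID was also among the 10. Both were higher in T at room temperature, by 0.96 and 1.12 on the log2 scale. The contrast differed between treatments in 8 of the 10 largest increases and in 9 of the 10 largest decreases, beside 32.7% of all tested IDs, but these IDs were chosen for a large contrast after cold shock. In 1 of the 8 the contrast was larger at room temperature (difference -2.75).

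The genotype contrast was larger after cold shock than at room temperature. At room temperature 156 IDs were called higher (0.553%) and 128 lower (0.454%), and at the FDR alone 2665 were higher (9.44%) and 2114 lower (7.49%). The median absolute log2 fold change over all tested IDs was 0.36 after cold shock, against 0.18 at room temperature, with median SEs of 0.13 and 0.12. The difference of the contrasts passed the FDR in 9220 IDs (32.7%), among them 508 of the 673 called higher after cold shock and 1032 of the 1387 called lower. The called IDs were chosen for a large contrast after cold shock, which enters this difference. Their counts are therefore a description and not independent evidence of a dependence on cold. Of the 673, 188 were also higher at room temperature at the FDR, 41 were lower and 444 passed in neither direction. Of the 1387, 128 were also lower at room temperature, 192 were higher and 1067 passed in neither direction. Of the 61 IDs called higher under both treatments, the contrast was larger after cold shock in 7 and smaller in 8, and 46 did not differ at the FDR. Of the 41 called lower under both, it was further from 0 after cold shock in 7, and 34 did not differ at the FDR. Of the 59 tested named genes, 46 differed, 42 of these toward a more positive contrast after cold shock and 4 toward a more negative one, which were OsDREB1C, OsDREB1G, OsWRKY62 and OsHsfB2b. The named genes were likewise chosen from results of these samples, so these counts too are only a description.

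**Figure D5:**
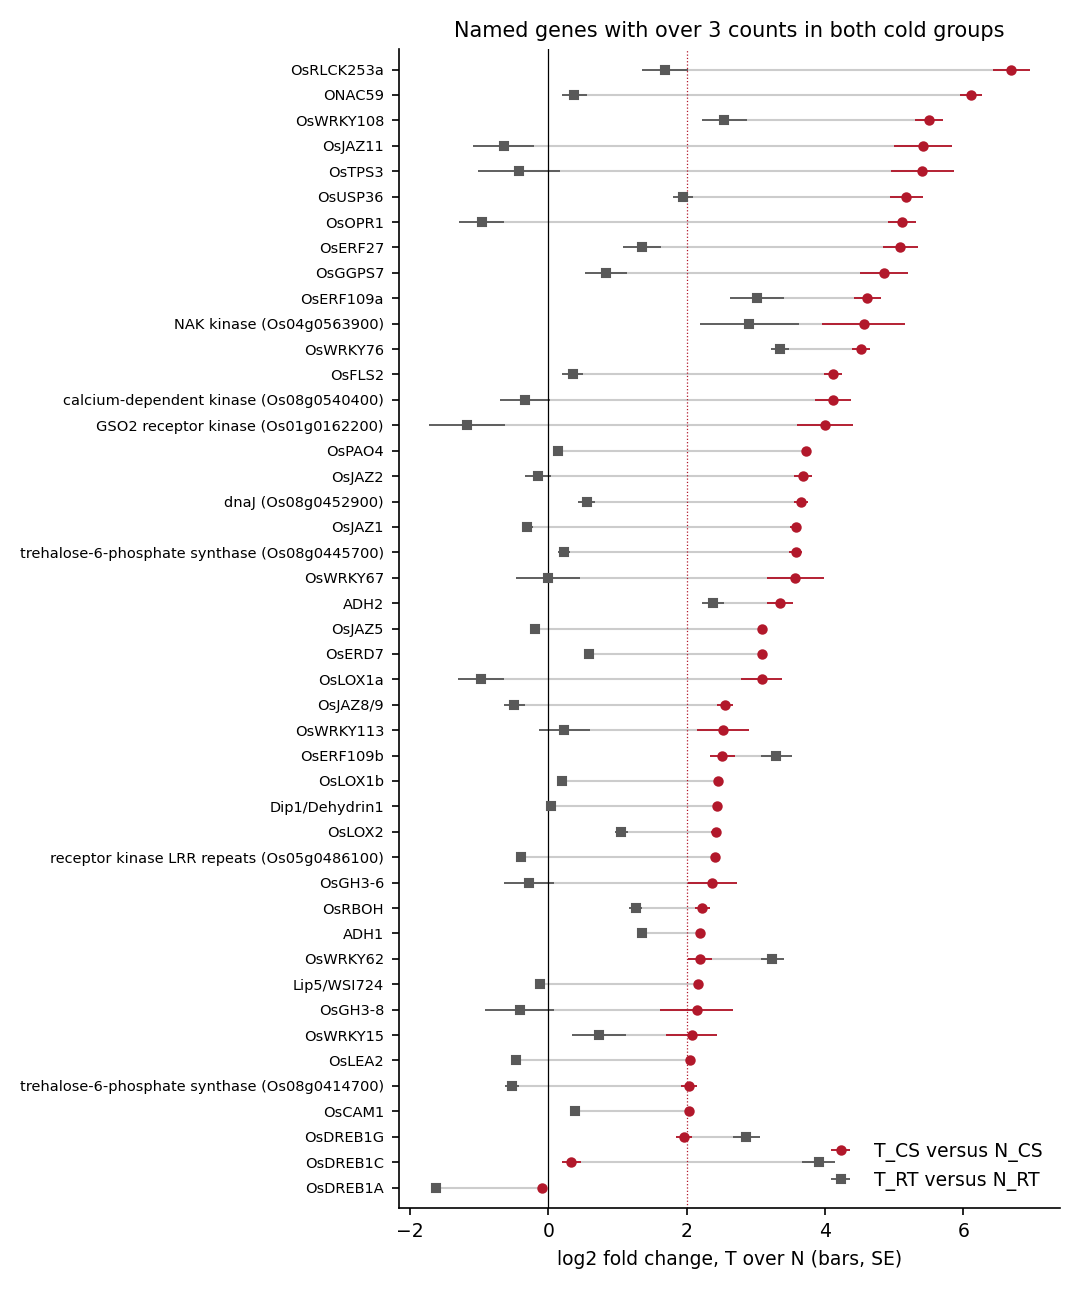
Log2 fold change of T over N with its SE for the 45 tested named genes that had over 3 counts in both cold groups, after cold shock (red circles) and at room temperature (gray squares), ordered by the first. The dotted line marks the log2 fold change of 2 asked of a higher call. In most genes the red circle lies to the right, from 2.03 in OsCAM1 to 6.70 in OsRLCK253a among the called genes, while OsERF109b, OsWRKY62, OsDREB1G and OsDREB1C have the larger value at room temperature.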

How the data were processed

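RNA-seq libraries of 4 groups (T_CS, N_CS, T_RT, N_RT) were analysed, 2 technical libraries from 1 pool each. The deposited values are raw counts per gene ID: per the labels and the study's methods, the authors trimmed reads with Trimmomatic, aligned them to IRGSP-1.0 with STAR and counted them with featureCounts 1.6.4. The libraries were made with a directional kit, but it is not stated whether counting used the strand or how reads with several places were treated. The methods speak of normalized counts, whereas the deposited counts are whole numbers with unequal totals and were used as raw counts.

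Genes were kept by filterByExpr (minimum count 10, minimum total 15) and tested in R 4.3.3 with edgeR 4.0.16 by a quasi-likelihood fit with 1 mean per group over the 8 libraries and TMM scaling. FDRs are Benjamini-Hochberg adjusted over all 28218 tested IDs. CPM uses TMM-scaled totals. Alternatives were DESeq2 1.42.0, other scalings, filters, samples and fold thresholds, a replicate block and leaving out each library. Collapsing near-equal neighbours, leaving out the 10 most abundant IDs and leaving out each room temperature library were chosen after seeing the data.

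Named genes are every gene the study gives with a complete ID, grouped in 18 lists, and the 10 largest increases and decreases among called IDs of at least 10 CPM in the higher group. The receptor-like kinase gene OsDEES1, which the study reports as higher and prints with an incomplete ID, is not among them. Of those, at most 2 unnamed IDs per direction are printed. The members and lists were chosen with earlier results of these data known. Other gene lists and tissue markers could not be filled, because no table used here pairs the IDs with descriptions, and promoters were not searched for DRE motifs.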

Additional observations from a re-analysis of the deposited data

Results flagged for a closer look

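The genotype contrast after cold shock differed from that at room temperature in 9220 gene IDs by the edgeR test of the difference itself. The values below are these differences on the log2 scale, T_CS over N_CS minus T_RT over N_RT, for the named genes that passed an FDR of 0.01. A positive value is a more positive contrast after cold shock. OsWRKY8, the bHLH148-like gene, OsHsfB2b, the beta-1,3-glucanase gene and Os02g0639300 had at most 3 counts in a cold group. The size of their differences is therefore uncertain, with SEs from 0.825 to 1.31.

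Among jasmonate and auxin genes, the difference was 3.87 for OsJAZ1, 3.83 for OsJAZ2, 3.29 for OsJAZ5, 3.05 for OsJAZ8/9 and 6.07 for OsJAZ11. It was 4.06 for OsLOX1a, 2.25 for OsLOX1b, 1.37 for OsLOX2 and 6.07 for OsOPR1. In the GH3 genes it was 2.65 for OsGH3-6 and 2.56 for OsGH3-8.

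Among transcription factor genes, it was 7.13 for OsWRKY8, 2.95 for OsWRKY108, 1.17 for OsWRKY76, 3.58 for OsWRKY67, 2.29 for OsWRKY113 and -1.05 for OsWRKY62. OsERF27 had 3.74, ONAC59 had 5.74 and the bHLH148-like gene had 5.70. The rice DREB1 genes examined were split, with 1.53 for OsDREB1A, -3.57 for OsDREB1C and -0.91 for OsDREB1G, and OsHsfB2b had -6.65.

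Among signaling genes, it was 5.01 for OsRLCK253a, 5.18 for the GSO2 receptor kinase gene Os01g0162200, 2.82 for the receptor kinase gene Os05g0486100 and 3.77 for OsFLS2. OsCAM1 had 1.64, the calcium-dependent kinase gene Os08g0540400 had 4.45 and OsRBOH had 0.96.

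Among genes of protective proteins and trehalose synthesis, it was 8.10 for OsLEA22, which had no N_CS count and whose value depends on the prior count, 2.52 for OsLEA2, 2.40 for Dip1/Dehydrin1 and 2.29 for Lip5/WSI724. OsUSP36 had 3.22, the dnaJ gene Os08g0452900 had 3.10 and OsERD7 had 2.49. The trehalose-6-phosphate synthase genes had 3.34 (Os08g0445700) and 2.55 (Os08g0414700).

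Among metabolic and defense genes, it was 4.02 for OsGGPS7, 5.83 for OsTPS3, 3.59 for OsPAO4, 0.84 for ADH1, 0.97 for ADH2 and 5.26 for the beta-1,3-glucanase gene Os01g0947000. Of the unnamed IDs printed, Os02g0639300 had 6.19, Os05g0407100 had -6.02 and Os09g0526650 had -5.37.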

How the results depend on the processing

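Counts of calls in T_CS versus N_CS were 593 to 690 higher and 1060 to 1663 lower over the alternatives that kept the fold thresholds, and changing these gave 2135 higher (1 and -1) and 316 lower (2 and -2). With DESeq2, 652 were called higher and 1060 lower, and 1696 of its 1712 calls were among the 2060 reported. Total counts as the scale gave 616 and 1663 calls and 2 in place of 1 named genes lower at the FDR, the second being OsDREB1A. Leaving out each library gave 649 to 686 higher and 1266 to 1322 lower calls, 1669 to 1716 of them shared with the 2060, with 5144 to 5651 higher and 4812 to 5075 lower at the FDR. The lone library is then assumed to vary like the other groups. At room temperature it gave 141 to 144 higher and 106 to 109 lower calls, for the difference of contrasts 8052 to 8861, and for the named genes higher at the FDR 54 to 56. The deviations of same-numbered libraries did not correlate (-0.0104), so the numbers do not pair them, and with a replicate block 669 were called higher and 1355 lower. Over the named genes and the largest changes, 960 of 965 alternative values kept direction and side of the FDR, 4 lost the FDR, 1 gained it and none turned. A gene that the filter of an alternative left out has no value there and is not counted in the 965. With at least 1 CPM in 2 libraries as the filter, 50 named genes were higher at the FDR in place of 56. Without 1 library, the fold change of 12 of the named genes and largest changes moved by over 1.5-fold. Of these, OsJAZ11 had a log2 fold change of 6.08 without N_CS replicate 2 and OsLOX1a one of 3.69 without N_CS replicate 1. The fits of OsWRKY8, OsERF108, the bHLH148-like gene, the beta-1,3-glucanase and Bowman-Birk genes and OsHsfB2b, with at most 3 counts in a group, moved as well, and their ratios are given with intervals. All of these compare technical libraries of 1 pool per group.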

Other observations

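The count tables also hold 112 IDs of organelle genes, of which 30 were tested. The libraries were made from poly(A) RNA, a selection that leaves out most organelle transcripts. By edgeR, 3 passed the FDR in T_CS versus N_CS, 2 of them called lower, beside 42.3% past the FDR and 4.92% called lower among all tested IDs. The chloroplast gene psbB, for a core antenna protein of photosystem II, had 5.68 and 5.79 CPM in T_CS, against 10.7 and 12.9 CPM in N_CS, a log2 fold change of -1.04 (edgeR, FDR 3.09e-08). The gene atpI, for a subunit of the chloroplast ATP synthase, had 0.963 and 1.41 CPM in T_CS, against 2.34 and 2.68 CPM in N_CS (-1.09, FDR 0.00571). Both T_CS libraries were below both N_CS libraries in each gene. The gene rps3, for a ribosomal protein, had 194 and 191 CPM in T_CS, against 178 and 178 CPM in N_CS, and passed the FDR with a log2 fold change of 0.11 (FDR 0.0091). Of 55 tested non-coding IDs, 2 were called lower, beside the same 4.92%.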
